A study of Homo sapiens with 6 samples.

Results

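The genes described here encode the nuclear subunits of the 5 oxidative phosphorylation complexes of mitochondria, with some of their assembly factors and paralogs. They were taken by symbol from the array's annotation: names starting with NDUF, UQCR, COX4, COX5, COX6, COX7, COX8, COXFA or ATP5, and the genes SDHA, SDHB, SDHC and SDHD. The annotation gave 108 records for 90 genes, of 45033 records and 17185 named genes in all: 43 genes for complex I, 3 for complex II, 7 for complex III, 20 for complex IV and 17 for complex V. 12 genes had more than 1 record, and each is represented by the one that was brightest on average. SDHB and UQCRFS1 fit the names but were matched only through a RefSeq accession, so they are given beside the 90 and not counted among them.

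The samples were cultures of the established cell line MDA-MB-231, which stems from a human breast carcinoma without hormone receptors or HER2 amplification, grown in DMEM. The 3 DCC-2036 cultures had received the drug at 3.75 μM for 48 h, and the 3 control cultures 0 μM for the same 48 h, in 3 experiments described as independent. DCC-2036, also called rebastinib, is a kinase inhibitor made against ABL1 that also acts on other kinases. Each culture gave 1 single-colour (Cy3) NimbleGen array, and a deposited value is a linear intensity in arbitrary units. Median intensities were 267 to 273 in the DCC-2036 arrays and 265 to 274 in the control arrays. Markers of this mesenchymal-type line (VIM, CD44, AXL, CAV1, MSN and SPARC) lay above the median record on average, as did ERBB2, GATA3, EPCAM, KRT8 and KRT18, whereas ESR1, PGR, FOXA1, TFF1, CDH1, the leukocyte markers PTPRC and CD3E and the endothelial markers PECAM1, CDH5 and VWF lay in the dimmest 25% of records. An intensity is specific to its probes, so levels of different genes are not compared, and bulk RNA cannot tell fewer expressing cells from less RNA per cell. Several of these genes have processed pseudogenes of near-identical sequence elsewhere in the genome, and whether the probes also read those was not tested. Precision is limited by the 3 arrays in each group. The p-values set each difference against the spread between these cultures, which limma moderates with the spread of the other genes.

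Oxidative phosphorylation passes electrons from NADH, through complex I, and from succinate, through complex II, to ubiquinone, then through complex III and cytochrome c to oxygen at complex IV. Complexes I, III and IV pump protons across the inner mitochondrial membrane, and complex V, the ATP synthase, makes ATP as protons flow back. Most subunits are encoded in the nucleus and a few of the catalytic ones in mitochondrial DNA, so both genomes have to supply parts. The transcription factors NRF1, the ETS-family factor GABP and YY1, with coactivators of the PGC-1 family, are known to act on promoters of many of the nuclear genes.

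Stretches before the start of 4 of the genes are shown because NDUFS3 and NDUFB10 had the largest rises of complex I, SDHA is the catalytic subunit of complex II and COXFA4L3 had the largest fall of the 90 genes. Each is the 250 bases before the RefSeq gene start, 5′ to 3′ on the gene's strand, in GRCh38.p14, with capitals marking matches on either strand to a core of the NRF1 site, which is GCGC, any 2 bases and GCGC again, or to CCGGAAG, a core of ETS sites.
NDUFS3, chr11:47578824-47579073, plus strand: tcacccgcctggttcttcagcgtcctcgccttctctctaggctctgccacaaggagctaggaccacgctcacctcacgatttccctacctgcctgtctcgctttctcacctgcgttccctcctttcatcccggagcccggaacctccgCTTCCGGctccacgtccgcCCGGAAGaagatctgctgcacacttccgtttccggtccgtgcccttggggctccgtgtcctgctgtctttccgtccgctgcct
NDUFB10, chr16:1959288-1959537, plus strand: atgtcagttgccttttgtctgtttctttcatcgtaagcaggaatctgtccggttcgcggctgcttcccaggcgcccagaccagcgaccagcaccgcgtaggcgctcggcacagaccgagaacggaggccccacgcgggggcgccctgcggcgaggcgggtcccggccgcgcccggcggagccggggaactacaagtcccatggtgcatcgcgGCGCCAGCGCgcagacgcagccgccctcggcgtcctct
SDHA, chr5:218070-218319, plus strand: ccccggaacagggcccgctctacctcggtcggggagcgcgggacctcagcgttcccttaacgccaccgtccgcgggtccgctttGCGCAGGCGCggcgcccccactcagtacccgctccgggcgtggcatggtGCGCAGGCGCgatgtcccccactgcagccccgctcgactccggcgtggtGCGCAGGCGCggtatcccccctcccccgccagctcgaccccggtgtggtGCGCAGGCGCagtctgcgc
COXFA4L3, chr15:45430360-45430609, plus strand: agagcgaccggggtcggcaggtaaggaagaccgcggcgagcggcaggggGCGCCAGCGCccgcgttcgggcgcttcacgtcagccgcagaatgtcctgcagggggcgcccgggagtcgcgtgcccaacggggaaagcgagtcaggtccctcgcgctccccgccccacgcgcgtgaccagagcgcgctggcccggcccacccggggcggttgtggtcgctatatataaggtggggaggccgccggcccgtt
The stretch of SDHA held 4 matches to the NRF1 core, each starting 49 bases after the one before it. NDUFS3 held 2 matches to CCGGAAG, and NDUFB10 and COXFA4L3 1 match each to the NRF1 core, so matches stood before genes that rose and before the gene that fell the most. RefSeq promoter windows were found for 76 of the 90 genes. Some genes have several windows, which can overlap, so genes are counted here by a match in any window. The NRF1 core was in 22.4% of the 76 genes, against 12.2% of 15842 protein-coding genes with a window. CCGGAAG was in 23.7% of the members and in 14% of all. The YY1 core AAGATGGC was in 1 member, ATP5PF, which is 1.32%, and in 1.77% of all. The NRF1 core with AT as its middle bases, a subset of the same matches, was in 3.95% and 1.72%. The NRF1 core was in 28.6% of 21 genes that rose with DCC-2036, 22.2% of 9 that fell and 19.6% of 46 that did not pass. With AT as its middle bases it was in 0% of those that rose, 0% of those that fell and 6.52% of those that did not pass. For CCGGAAG the shares were 19% where genes rose, 11.1% where they fell and 28.3% where they did not pass. These are counts of letters in a window and no test was made of them.

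DCC-2036 cultures had higher signals for more of these genes than they had lower ones, and most changes were under 2-fold. Of the 90 genes, 26 rose, 9 fell and 55 did not pass the threshold of an adjusted p of 0.05 (limma, Benjamini-Hochberg over all 17185 genes). Over all genes tested 13.1% were called higher and 16% lower, against 28.9% and 10% of the oxidative phosphorylation genes. Their median log2 change was 0.26, and it was 0.02 over all genes. A rise or fall of at least 2-fold was met by 5 and 2 members, NDUFS3, ATP5F1D, NDUFB10, NDUFAF6 and NDUFC2 upward and COXFA4L3 and NDUFAF1 downward, where the shares of all genes were 6.16% and 8.5%. The 3 treated values lay above the 3 control values in 37 members and below them in 15, and over all genes this was so in 22.2% and 24.3%.

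Only 5 of the 90 genes had a mean in the dimmest 25% of records (below 74.1): NDUFS1, COX6A2, COX7A1, COX7B2 and ATP5MC3. The counts were also taken in a fit without records below the median intensity, where more of all genes passed. There 30 of 78 members were higher (38.5%, against 25.4% of 9025 genes) and 11 lower (14.1%, against 30.5%). With an array left out, fewer genes passed overall. The higher members were 12.2% without DCC-2036 replicate 2 (11 genes, against 8.51% of all genes), 15.6% without control replicate 2 (14, against 9.37%), 16.7% without control replicate 1 (15, against 8.27%) and 16.7% without control replicate 3 (15, against 9.26%). They were 17.8% without DCC-2036 replicate 3 (16, against 9.55%) and 21.1% without DCC-2036 replicate 1 (19, against 11%). The lower members were 5 to 8 in these fits, 5.56% to 8.89%, against 10% to 13.4% of all genes. Of the 35 calls, 16 held without each array in turn, 11 of them rises and 5 falls. The plot of changes by complex shows every gene with its standard error, and the plot of shares sets the complexes beside all genes.

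**Figure D1:**
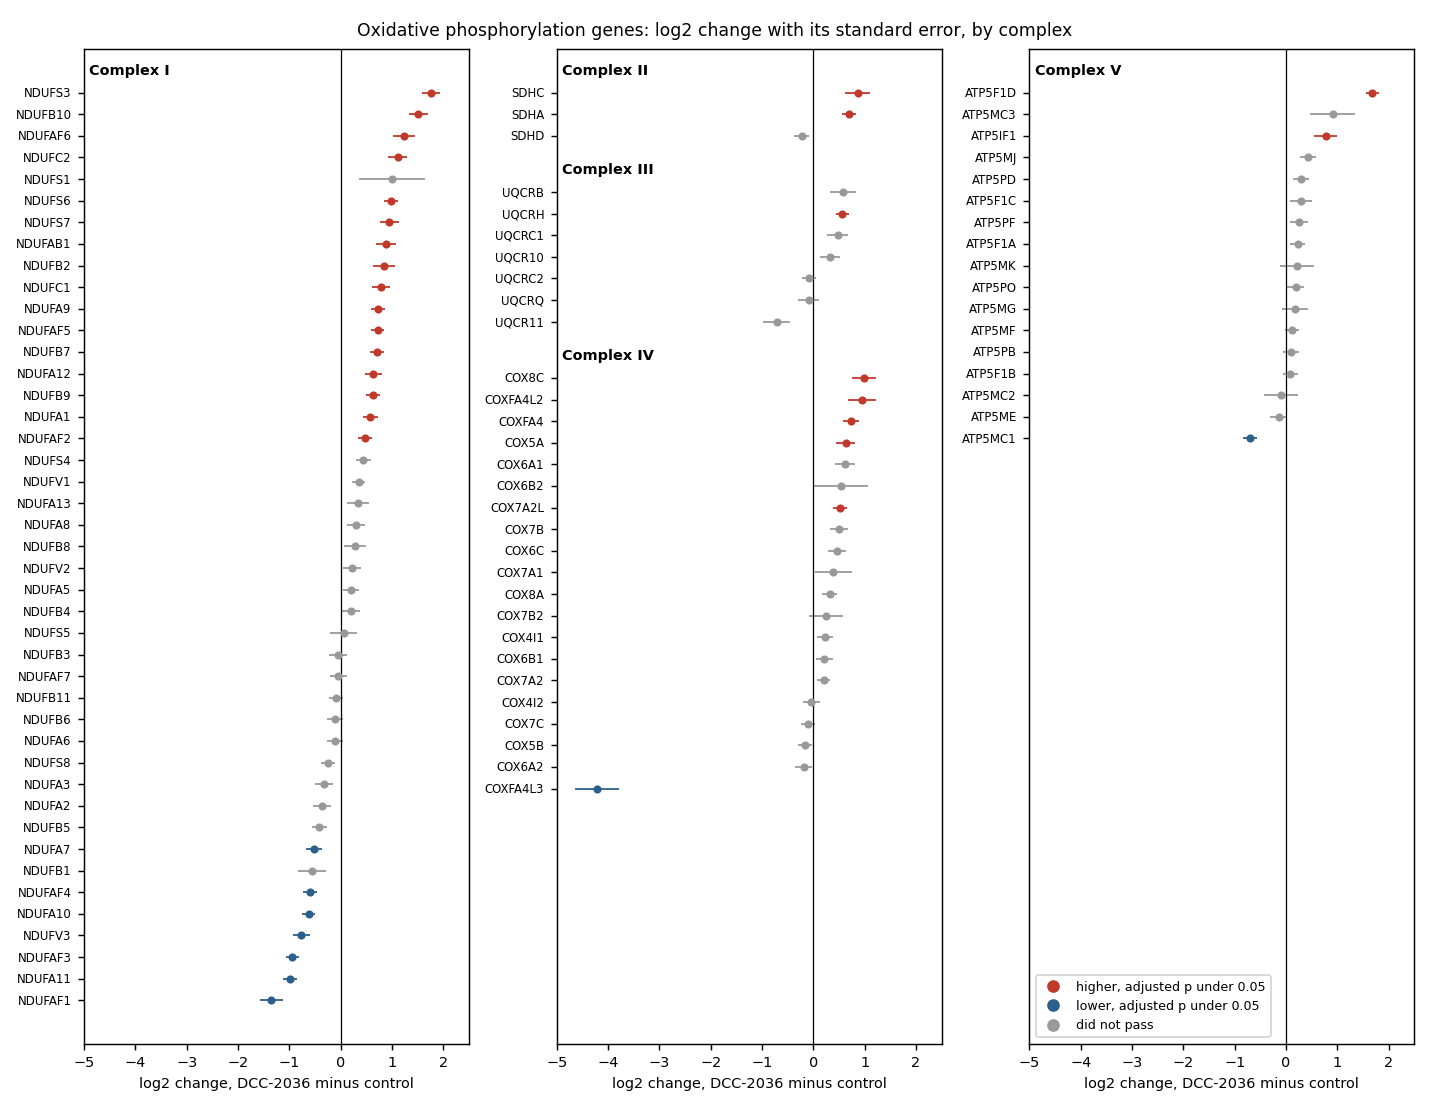
Log2 change, DCC-2036 minus control, with its standard error (bars) for the 90 genes, ordered within complexes I to V; red and blue points passed an adjusted p of 0.05 upward and downward and grey points did not. Most points lie between -1 and 1, and COXFA4L3 stands apart at -4.22.

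**Figure D2:**
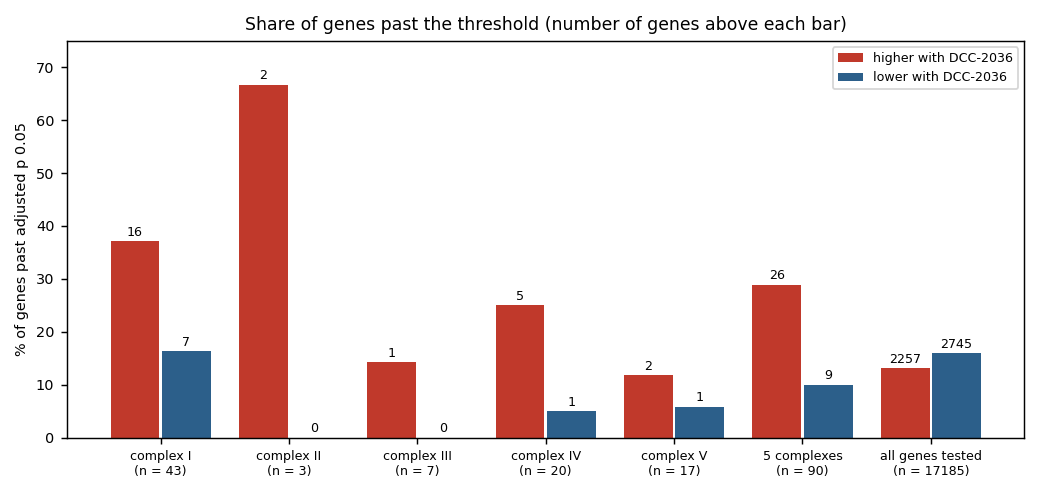
Percentage of genes past an adjusted p of 0.05 in each complex, in the 5 complexes together and in all 17185 genes tested, with the number of genes above each bar; red bars are higher and blue bars lower with DCC-2036. The red bar of complex I stands for 16 of 43 genes and that of complex V for 2 of 17.

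Complex I, which oxidizes NADH, held most of the changes. Of its 43 genes, 16 rose (37.2%, against 13.1% of all genes) and 7 fell (16.3%, against 16%). The median log2 change of the 43 was 0.28. In the peripheral arm, which carries the flavin and the iron-sulphur clusters into the matrix, 5 of 15 rose (33.3%) and 2 fell (13.3%). NDUFS3, a core subunit of that arm, had the largest rise of all 90 genes: its intensities were 2439, 3253 and 3075 in the DCC-2036 arrays, against 884, 935 and 759 in the control arrays (3.38-fold; log2 change 1.76 ± 0.18, limma adjusted p = 0.00168). All 3 treated values were above the highest control value. NDUFS6, an accessory subunit, had intensities of 9843, 11350.4 and 10280.4 in the DCC-2036 arrays, against 5144, 5766 and 5031 in the control arrays (log2 change 0.98 ± 0.14, limma adjusted p = 0.00478). NDUFS7, a core subunit that hands electrons on to ubiquinone, had 2856, 3468 and 3512 in the DCC-2036 arrays, against 1962, 1426 and 1729 in the control arrays (log2 change 0.95 ± 0.18, limma adjusted p = 0.0115). In NDUFS6 and NDUFS7 the groups stood apart without overlap. NDUFA9, an accessory subunit near the ubiquinone site (0.73 ± 0.13), and NDUFA12 (0.63 ± 0.16), also accessory, rose as well.

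The 2 members of the arm that fell were NDUFV3, an accessory subunit at the NADH-oxidizing end, and NDUFA7, also accessory. NDUFV3 had 544, 625 and 609 in the DCC-2036 arrays, against 1101, 1098 and 856 in the control arrays (log2 change -0.77 ± 0.16, limma adjusted p = 0.0167), and its second record was at -0.64 ± 0.19 and did not pass (limma adjusted p over all records = 0.0511). NDUFA7 changed by -0.53 ± 0.16 (limma adjusted p = 0.0484). NDUFV1, the core subunit that binds NADH and the flavin, was at 0.35 ± 0.13 (limma adjusted p = 0.0872, 95% interval 0.04 to 0.66), and its treated arrays all exceeded its control arrays. It passed as higher with trend and robust settings (limma adjusted p = 0.0186), without the dimmest 25% of records (0.0484) and without records below the median (0.0288). NDUFS1, a core subunit with iron-sulphur clusters, lay in the dimmest 25% of records, with 53.9, 94.2 and 36.4 in the DCC-2036 arrays, against 14.5, 72.8 and 20.5 in the control arrays (1.00 ± 0.64, not passing). The peripheral arm's calls lost were those of NDUFA12 without every array but DCC-2036 replicate 3 (0.56 to 0.64), NDUFA7 without each of the 6 arrays in turn (-0.60 to -0.44) and NDUFV3 without control replicate 1 or 2 (-0.71). NDUFA7 also did not pass after a repeated quantile normalization (-0.47), with array weights (-0.51) or with adjustment over all records.

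In the membrane arm of complex I, which pumps protons, 8 of 21 accessory subunits rose (38.1%, against 13.1% of all genes) and 2 fell (9.52%, against 16%). The median log2 change of the 21 was 0.28. NDUFB10 had 5741, 5256 and 5111 in the DCC-2036 arrays, against 1537, 1869.7 and 2309 in the control arrays (2.85-fold; log2 change 1.51 ± 0.19, limma adjusted p = 0.00308). NDUFC2 had 833, 740.2 and 699 in the DCC-2036 arrays, against 423, 347 and 292 in the control arrays (log2 change 1.11 ± 0.18, limma adjusted p = 0.00744). The 3 treated values of each of these subunits lay above all of its control values, by a wide margin in NDUFB10. The other rises were NDUFAB1 (0.88 ± 0.19), NDUFB2 (0.84 ± 0.21), NDUFC1 (0.78 ± 0.18), NDUFB7 (0.71 ± 0.14), NDUFB9 (0.62 ± 0.14) and NDUFA1 (0.57 ± 0.15), where NDUFAB1 is also the acyl carrier protein of mitochondria. The falls were in NDUFA11, with 5292, 5889 and 5035 in the DCC-2036 arrays, against 10054, 11295 and 10802 in the control arrays (log2 change -0.99 ± 0.14, limma adjusted p = 0.00454), and NDUFA10, also of the membrane arm (-0.62 ± 0.13). NDUFB1 was at -0.56 ± 0.27 and did not pass (limma adjusted p = 0.17). Membrane arm calls were lost by NDUFAB1 without DCC-2036 replicate 2 or 3 (0.83 to 0.85), NDUFB2 without DCC-2036 replicate 2 or 3 and without control replicate 2 or 3 (0.76 to 0.79), NDUFC1 without every array but DCC-2036 replicate 3 (0.70 to 0.85), NDUFB9 without DCC-2036 replicate 2 and without control replicate 1 or 2 (0.56 to 0.62), NDUFA1 without each of the 6 arrays in turn (0.51 to 0.65) and NDUFA10 without control replicate 1 (-0.62).

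The assembly factors of complex I, proteins that help to build it and are absent from the finished enzyme, moved both ways. Of the 7, 3 were higher (42.9%, against 13.1% of all genes) and 3 lower (42.9%, against 16%). NDUFAF1, which assists the membrane arm, had 238, 149.8 and 185 in the DCC-2036 arrays, against 552, 406 and 498 in the control arrays (2.56-fold lower; log2 change -1.36 ± 0.22, limma adjusted p = 0.00705). NDUFAF3 had 1978, 2007 and 2087 in the DCC-2036 arrays, against 3903, 3679 and 4104 in the control arrays (log2 change -0.94 ± 0.13, limma adjusted p = 0.00423). All 4 records of NDUFAF3 passed as lower in the fit over all records, the other 3 at -1.06, -1.28 and -0.93. Records of a gene come from the same arrays and are not counted as replicates. NDUFAF4 changed by -0.60 ± 0.14. Upward, NDUFAF6 had 425, 645 and 549 in the DCC-2036 arrays, against 264, 226 and 193 in the control arrays (2.35-fold; log2 change 1.23 ± 0.21, limma adjusted p = 0.0084). NDUFAF5, which modifies the subunit NDUFS7, rose by 0.72 ± 0.13 and NDUFAF2 by 0.47 ± 0.14 (limma adjusted p = 0.0486). Among the assembly factors calls were lost by NDUFAF4 without every array but DCC-2036 replicate 1 (-0.63 to -0.54) and NDUFAF2 without each of the 6 arrays in turn (0.39 to 0.52), and NDUFAF2 also did not pass with adjustment over all records. NDUFAF7, a methyltransferase, was at -0.05 ± 0.17 and did not pass.

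**Figure D3:**
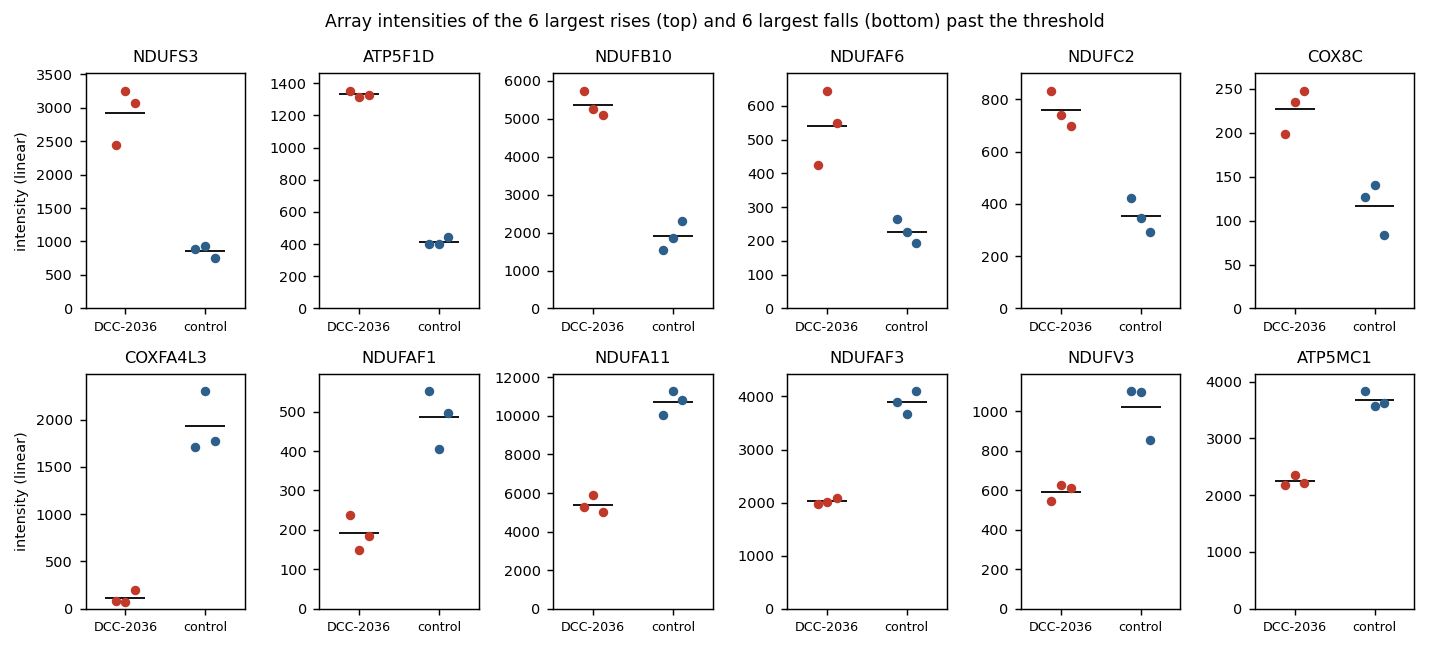
Intensity (linear axis from 0, arbitrary units) on each of the 3 DCC-2036 arrays (red) and 3 control arrays (blue), with the group mean as a line, for the 6 largest rises (top row) and the 6 largest falls (bottom row) that passed an adjusted p of 0.05. In none of the 12 genes do the groups overlap; COXFA4L3 lies at 66.3 to 201 in the DCC-2036 arrays and 1713 to 2303 in the control arrays.

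Complex II is succinate dehydrogenase, an enzyme of both the tricarboxylic acid cycle and the respiratory chain that needs no mitochondrially encoded subunit. Of its 3 genes named by the annotation 2 rose (66.7%, against 13.1% of all genes) and 0 fell (against 16%) in the limma test. At an unadjusted p under 0.05 also 0 were lower. SDHA, the flavoprotein that oxidizes succinate, had 6660.4, 7626 and 7601 in the DCC-2036 arrays, against 4551, 4440.4 and 4538 in the control arrays (1.61-fold; log2 change 0.69 ± 0.14, limma adjusted p = 0.0125). SDHB, the iron-sulphur subunit, matched by accession, had 5709.8, 5743 and 6146 in the DCC-2036 arrays, against 3926, 3728 and 4213 in the control arrays (log2 change 0.57 ± 0.13, limma adjusted p = 0.0233). Both catalytic subunits were thus higher in all 3 treated arrays than in any control array. SDHC, a membrane anchor, had 282, 348 and 419 in the DCC-2036 arrays, against 254, 164 and 164 in the control arrays (log2 change 0.86 ± 0.24, limma adjusted p = 0.0421). SDHD, the other anchor, had 5453, 5600.3 and 6205 in the DCC-2036 arrays, against 7089, 7287 and 5921 in the control arrays, with overlapping groups (-0.23 ± 0.15, limma adjusted p = 0.306, 95% interval -0.60 to 0.14). In complex II calls were lost by SDHB without DCC-2036 replicate 2 or 3 and without control replicate 1 or 2 (0.53 to 0.58) and SDHC without DCC-2036 replicate 2 or 3 and without control replicate 2 or 3 (0.72 to 0.85).

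In complex III, which passes electrons from ubiquinol to cytochrome c, 1 of 7 genes rose (14.3%) and 0 fell in the limma test. At an unadjusted p under 0.05 these counts were 1 and 1. Over all genes 13.1% were higher and 16% lower at an adjusted p under 0.05. The median log2 change of the 7 was 0.32. UQCRH, the hinge protein, had 5042, 5441 and 5165 in the DCC-2036 arrays, against 3651, 3389 and 3546 in the control arrays (log2 change 0.56 ± 0.13, limma adjusted p = 0.0217). UQCRFS1, the Rieske iron-sulphur protein, matched by accession, had 2394, 2856 and 2594 in the DCC-2036 arrays, against 1594, 1602 and 1597 in the control arrays (log2 change 0.71 ± 0.14, limma adjusted p = 0.0124). Its control arrays were nearly equal and its treated arrays all higher. The core subunits UQCRC1 (0.47 ± 0.20) and UQCRC2 (-0.09 ± 0.14) did not pass, though UQCRC1 passed as higher with trend and robust settings (limma adjusted p = 0.0313) and without records below the median (0.0432). UQCR11, a small accessory subunit, had 483, 347 and 706 in the DCC-2036 arrays, against 791, 885 and 755 in the control arrays (-0.72 ± 0.27, limma adjusted p = 0.0947), and it passed as lower with trend and robust settings (limma adjusted p = 0.032) or without records below the median (0.0266), and without DCC-2036 replicate 3 (-0.98). UQCRB, another small subunit, was at 0.57 ± 0.25 and did not pass. The call of UQCRH was lost without every array but DCC-2036 replicate 1 (0.53 to 0.59), which leaves 0 of the 7 genes higher in those fits. The median of the 7 turned to -0.09 without records below the median, which removed 2 of the genes.

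Complex IV, cytochrome c oxidase, reduces oxygen. Of its 20 genes 5 rose (25%, against 13.1% of all genes) and 1 fell (5%, against 16%). The median log2 change of the 20 was 0.35. Of the 11 ubiquitous subunits COX5A and COXFA4 rose and 0 fell in the limma test, and 9 of the 11 changes were positive. Changes were positive in 61 of the 90 genes and in 8782 of all 17185. COX5A had 1071, 1163 and 1232 in the DCC-2036 arrays, against 646, 679 and 941 in the control arrays (log2 change 0.63 ± 0.19, limma adjusted p = 0.0499), close to the threshold. COX6A1 had 6809.9, 8170.4 and 10206 in the DCC-2036 arrays, against 5327, 4939 and 5954 in the control arrays (0.62 ± 0.19) and just missed it (limma adjusted p = 0.0557). It passed with trend and robust settings (limma adjusted p = 0.00757), without the dimmest 25% of records (0.0332) and without records below the median (0.0125). It also passed after a repeated quantile normalization (limma adjusted p = 0.0454), with 16 added before the log (0.0452) and with array weights (0.0421). Without DCC-2036 replicate 1 it passed too (log2 change 0.76). Of the other ubiquitous forms, COX4I1 was at 0.23 ± 0.16, COX6B1 at 0.21 ± 0.16, COX7A2 at 0.20 ± 0.13, COX7B at 0.50 ± 0.17 and COX8A at 0.32 ± 0.14, and these did not pass, though COX7B and COX8A did with trend and robust settings (limma adjusted p = 0.0127 and 0.0445). COX7B also passed without the dimmest 25% of records (limma adjusted p = 0.0407) and without records below the median (0.0181). COX7A2L, a relative of COX7A2 that links complexes III and IV into supercomplexes, rose, with 8468, 8876 and 9023 in the DCC-2036 arrays, against 6198, 6444 and 5725 in the control arrays (log2 change 0.52 ± 0.13, limma adjusted p = 0.0294).

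Tissue-restricted forms were measured too. The lung-enriched COX4I2 (-0.04 ± 0.17), the muscle forms COX6A2 (-0.19 ± 0.17) and COX7A1 (0.39 ± 0.37) and the testis forms COX6B2 (0.53 ± 0.54) and COX7B2 (0.25 ± 0.33) did not pass. The records of COX6A2, COX7A1 and COX7B2 were in the dimmest 25%. COX8C, the testis form of subunit 8, had 199, 236 and 248 in the DCC-2036 arrays, against 127, 141 and 83.2 in the control arrays (log2 change 0.98 ± 0.23, limma adjusted p = 0.0239). All of its values lay below the median of record means (280.7), though the record was not in the dimmest 25%. Calls in complex IV were lost by COX5A without every array but control replicate 3 (0.53 to 0.68), COX7A2L without each of the 6 arrays in turn (0.48 to 0.56) and COX8C without DCC-2036 replicate 2 or 3 and without control replicate 1 (0.92 to 1.06). COX5A also did not pass with each array centred on its median (0.62) or with adjustment over all records. The number of higher genes in complex IV was 0 to 3 with each array left out.

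The COXFA4 family held the largest fall. COXFA4 was once assigned to complex I as NDUFA4 and is now counted with complex IV, COXFA4L2 (NDUFA4L2) is a paralog known to be induced in hypoxia, and COXFA4L3 (C15orf48) is a paralog known from inflamed tissue. COXFA4L3 had 79, 66.3 and 201 in the DCC-2036 arrays, against 1713, 2303 and 1774 in the control arrays (log2 change -4.22 ± 0.42, limma adjusted p = 0.00171). All treated values lay far below the lowest control value. Of the treated values 2 lay near the bound of the dimmest 25% of records (74.1), and intensities carry no detection call, so the log2 change is that of the deposited values and no fold is given. Its second record had 81.6, 101 and 133 in the DCC-2036 arrays, against 809, 611 and 341 in the control arrays (log2 change -2.41 ± 0.35, limma adjusted p over all records = 0.00546). Without each array in turn the brightest record changed by -4.71 to -3.91, and the call held. COXFA4 itself moved the other way, with 5653, 6845 and 6014 in the DCC-2036 arrays, against 4098, 3736 and 3359 in the control arrays (1.65-fold; log2 change 0.73 ± 0.16, limma adjusted p = 0.0168). COXFA4L2 had 116, 167 and 97.6 in the DCC-2036 arrays, against 69.7, 47.4 and 77.9 in the control arrays (log2 change 0.95 ± 0.28, limma adjusted p = 0.0452), dim on all arrays. Calls were lost by COXFA4 without DCC-2036 replicate 2 and without control replicate 2 or 3 (0.65 to 0.73) and COXFA4L2 without every array but DCC-2036 replicate 3 (0.74 to 1.09), and COXFA4L2 also did not pass after a repeated quantile normalization (0.88) or with trend and robust settings.

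**Figure D4:**
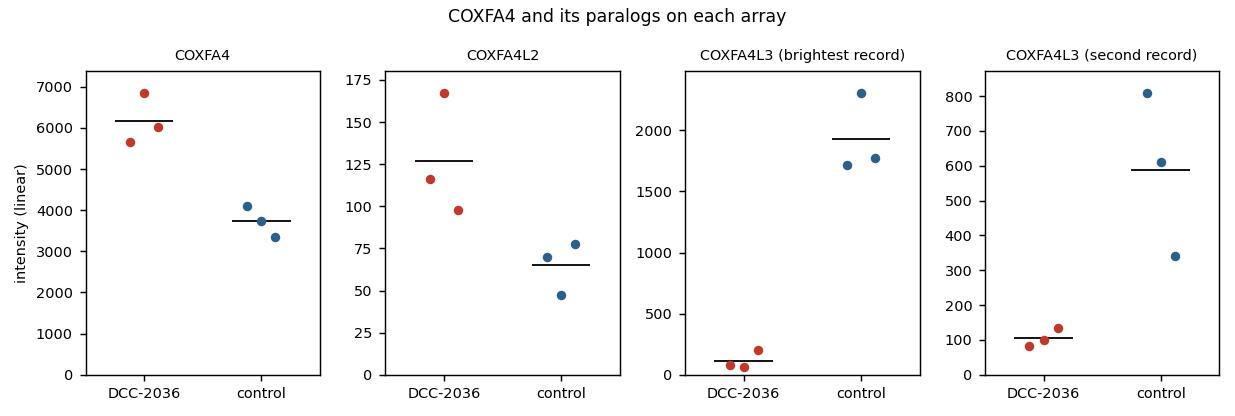
Intensity (linear axes from 0, each with its own scale, arbitrary units) of COXFA4, COXFA4L2 and both records of COXFA4L3 on each of the 3 DCC-2036 arrays (red) and 3 control arrays (blue), with group means as lines. COXFA4 and COXFA4L2 are higher in the DCC-2036 arrays and both COXFA4L3 records lower, with log2 changes of -4.22 and -2.41.

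In complex V, the ATP synthase, 2 of 17 genes were higher (11.8%, against 13.1% of all genes) and 1 was lower (5.88%, against 16%). The median log2 change of the 17 was 0.21. In the F1 head, ATP5F1D, the delta subunit of the central stalk, had 1354, 1314 and 1327 in the DCC-2036 arrays, against 401, 401 and 443 in the control arrays (3.21-fold; log2 change 1.68 ± 0.13, limma adjusted p = 0.00101), and its second record rose by 0.74 ± 0.17. The 3 arrays of each group lay close together. The catalytic beta subunit ATP5F1B had 15804, 16377 and 13034 in the DCC-2036 arrays, against 14363, 14842 and 13244 in the control arrays, with overlapping groups (0.09 ± 0.15, 95% interval -0.29 to 0.46). The alpha subunit ATP5F1A (0.23 ± 0.15) and the gamma subunit ATP5F1C (0.30 ± 0.22) did not pass. ATP5IF1, the protein that inhibits ATP hydrolysis by the enzyme, had 9588, 11449 and 8539.5 in the DCC-2036 arrays, against 5251, 7418 and 4865 in the control arrays (log2 change 0.77 ± 0.22, limma adjusted p = 0.0411). This rise was not shared by its second record, which was at -0.15 ± 0.18, and the mean of both was at 0.31 and did not pass. The call of ATP5IF1 was lost without every array but control replicate 2 (0.65 to 0.87).

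Of the 12 membrane and peripheral stalk subunits of complex V, 0 rose (against 13.1% of all genes) and 1 fell (8.33%, against 16%) in the limma test. At an unadjusted p under 0.05, 1 was higher. ATP5MC1, one of the genes for the c-ring subunit, had 2186, 2351 and 2218 in the DCC-2036 arrays, against 3837, 3567 and 3619 in the control arrays (log2 change -0.71 ± 0.13, limma adjusted p = 0.0103), and its second record was at -0.42 ± 0.16 and did not pass. The groups of the brightest record stood well apart. The other c-ring genes, which encode the same mature protein, were at -0.09 ± 0.33 for ATP5MC2 and 0.91 ± 0.44 for the dim ATP5MC3, and did not pass. ATP5MJ, a small membrane subunit, was at 0.43 ± 0.15 (limma adjusted p = 0.0822), and passed as higher with trend and robust settings (0.0409), without the dimmest 25% of records (0.0484) and without records below the median (0.0244). ATP5PF, the coupling factor of the peripheral stalk, had records that passed in both directions in the fit over all records. Its second record had 1976, 1949 and 1871 in the DCC-2036 arrays, against 1230.4, 1478 and 1348 in the control arrays (log2 change 0.52 ± 0.14, limma adjusted p over all records = 0.0416), and its dimmest 172, 264 and 233 in the DCC-2036 arrays, against 326, 350.5 and 400.3 in the control arrays (log2 change -0.70 ± 0.20, limma adjusted p over all records = 0.0498). Its brightest record was at 0.25 ± 0.18 and did not pass. Over all records 12.5% were called higher and 13.5% lower.

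Other genes of the same pathway and organelle were set beside these, in lists made by role. Mitochondrially encoded subunits were not analysed here. CYC1, cytochrome c1 of complex III (0.48 ± 0.18, limma adjusted p = 0.0889), and CYCS, cytochrome c (0.15 ± 0.18), did not pass (1 of the 2 was higher at an unadjusted p under 0.05). CYC1 passed as higher with trend and robust settings (limma adjusted p = 0.018) and without records below the median (0.0263). Of 40 further assembly factors 3 rose (7.5%, against 13.1% of all genes) and 8 fell (20%, against 16%), with a median of -0.05. COA4, a complex IV factor, had 617, 616 and 654 in the DCC-2036 arrays, against 2317, 2088 and 2014 in the control arrays (log2 change -1.76 ± 0.14, limma adjusted p = 0.00101). ACAD9, a factor for complex I, had 1056, 955 and 815 in the DCC-2036 arrays, against 2650.2, 2789 and 2636 in the control arrays (log2 change -1.52 ± 0.15, limma adjusted p = 0.00171). Both were far below control in all 3 treated arrays. SCO2, which brings copper to complex IV, rose by 1.13 ± 0.17, and FOXRED1, for complex I, fell (-0.84 ± 0.13). The other rises were COX10, which makes heme for complex IV (0.61 ± 0.15), and ATPAF2, a chaperone of complex V (0.86 ± 0.15), and COX10 lost its call without every array but DCC-2036 replicate 1 (0.52 to 0.67).

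Among 18 regulators of mitochondrial biogenesis and of mitochondrial DNA, 3 rose (16.7%) and 5 fell (27.8%), with a median of -0.34. Over all genes 13.1% were higher and 16% lower. ESRRA, a nuclear receptor that acts on oxidative phosphorylation genes, had 1849, 1521 and 1117 in the DCC-2036 arrays, against 442, 561 and 429.8 in the control arrays (3.08-fold; log2 change 1.62 ± 0.23, limma adjusted p = 0.00443). The coactivator PPARGC1A, a partner of ESRRA, had 533, 584 and 608 in the DCC-2036 arrays, against 319, 279 and 361 in the control arrays (log2 change 0.85 ± 0.16, limma adjusted p = 0.0105). Both were higher in every treated array than in any control array. POLRMT, the RNA polymerase of mitochondria, rose by 1.46 ± 0.19, while TWNK, the helicase of mitochondrial DNA (-1.64 ± 0.23), POLG, its polymerase (-1.32 ± 0.22), TFAM, its packaging and transcription factor (-1.05 ± 0.20), TFB2M, another transcription factor of mitochondrial DNA (-1.10 ± 0.26), and PPRC1, a relative of PGC-1 (-0.64 ± 0.16), fell. NRF1, whose site core is marked in the sequences above, had 387, 437 and 562 in the DCC-2036 arrays, against 761, 633 and 687 in the control arrays (-0.60 ± 0.19, limma adjusted p = 0.0563), and GABPA, the DNA-binding subunit of GABP, was at 0.73 ± 0.27, and these did not pass. GABPA passed without DCC-2036 replicate 1 (1.01), and NRF1 as lower without DCC-2036 replicate 3 (-0.75) and with trend and robust settings (limma adjusted p = 0.0247). NRF1 also passed as lower with 16 added before the log (limma adjusted p = 0.0474), without the dimmest 25% of records (0.0333) and without records below the median (0.0128). Calls were lost by TFB2M without DCC-2036 replicate 2 and without control replicate 1, 2 or 3 (-1.17 to -1.03) and PPRC1 without every array but DCC-2036 replicate 3 (-0.68 to -0.55).

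Of 14 tricarboxylic acid cycle enzymes other than succinate dehydrogenase, 3 rose (21.4%, against 13.1% of all genes) and 1 fell (7.14%, against 16%), with a median of 0.16. IDH3G (1.10 ± 0.15) and IDH3B (0.53 ± 0.13) were among the higher and SUCLG2 (-0.79 ± 0.18) was lower. The second record of IDH3G was at 0.15 and did not pass. Of the 3 calls named here, those lost were IDH3B without each of the 6 arrays in turn (0.51 to 0.56) and SUCLG2 without DCC-2036 replicate 2 or 3 and without control replicate 1 or 2 (-0.75 to -0.72). Of 20 import and outer membrane genes 1 rose (5%) and 7 fell (35%), with a median of -0.31. TIMM8A, a chaperone of the intermembrane space, had 163, 124 and 179 in the DCC-2036 arrays, against 506, 519 and 616 in the control arrays (log2 change -1.82 ± 0.19, limma adjusted p = 0.00185). TIMM10, another such chaperone (-1.05 ± 0.16), HSPD1, the chaperonin of the matrix (-0.88 ± 0.16), and TOMM22, an import receptor (-0.89 ± 0.17), fell too. TIMM44, of the import motor, was the 1 gene that rose (0.49 ± 0.13), and it lost its call without each of the 6 arrays in turn (0.47 to 0.52). The difference between lists was not tested.

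Of the 5 carriers that bring ADP and phosphate to ATP synthase, 0 rose and 2 fell in the limma test (0 higher at an unadjusted p under 0.05). SLC25A5, an ADP/ATP carrier, had 11853, 11144 and 11090.0 in the DCC-2036 arrays, against 19687, 18838 and 22852 in the control arrays (log2 change -0.84 ± 0.14, limma adjusted p = 0.00796). SLC25A6, another, had 12619.5, 11385 and 12437 in the DCC-2036 arrays, against 25972, 25091 and 22176 in the control arrays (log2 change -1.01 ± 0.14, limma adjusted p = 0.00433). In both the groups did not overlap. The phosphate carrier SLC25A3 (-0.32 ± 0.13) and the muscle-type carrier SLC25A4 (0.26 ± 0.16) did not pass. SLC25A3 did pass as lower with trend and robust settings (limma adjusted p = 0.0267) and without records below the median (0.0435). Of 8 enzymes that feed ubiquinone by other routes, 2 rose (25%, against 13.1% of all genes) and 1 fell (12.5%, against 16%). SQOR, which oxidizes sulphide (1.16 ± 0.17), and PRODH, which oxidizes proline (1.19 ± 0.21), rose, GPD2, of the glycerol phosphate shuttle, was lower (-0.61 ± 0.15), and DHODH, of pyrimidine synthesis, was at -0.69 ± 0.22 (limma adjusted p = 0.0596). The call of GPD2 was lost without every array but control replicate 3 (-0.65 to -0.55), and DHODH passed without DCC-2036 replicate 2 (-0.89), with trend and robust settings, with 16 added before the log and without dim records. The plot of lists sets them beside the 5 complexes.

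**Figure D5:**
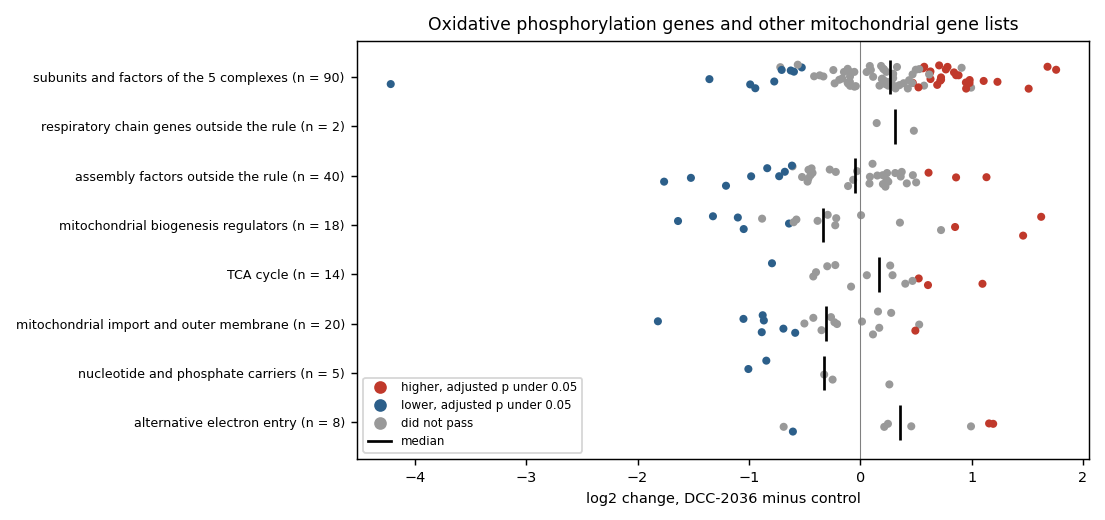
Log2 change, DCC-2036 minus control, of each gene (points, spread vertically at random) in the 90 oxidative phosphorylation genes and 7 other mitochondrial lists, with the median of each as a black line; red and blue points passed an adjusted p of 0.05 upward and downward. The median of the 90 genes is 0.26, and those of the import and carrier lists are -0.31 and -0.32.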

How the data were processed

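MDA-MB-231 cultures with DCC-2036 or without it were measured on 6 one-colour arrays. The deposited values are normalized intensities on a linear scale, and per the submitters' processing notes they were made with RMA, which corrects background, applies quantile normalization and summarises probes. The sources used here do not give the authors' further settings. Of 45033 records, the platform annotation named 18188 with 1 gene, RefSeq accessions named 678 and 26167 stayed unnamed and were used only in the fit over all records.

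Per gene, the record with the highest mean was kept. After log2(intensity + 1), DCC-2036 minus control was fitted without covariates in limma 3.58.1 (R 4.3.3) over 17185 genes, with Benjamini-Hochberg adjustment and a threshold of 0.05; records were fitted likewise. Values given as x ± y are log2 changes with their standard error. The scripts were tested on simulated data. An exact permutation test of 3 arrays against 3 cannot go below 0.1, so none is given.

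Genes named are every member that passed, the 2 largest changes per complex that did not, the complex II genes and complex IV paralogs, members with discordant records, and the 4 smallest p-values of each other list; NDUFV1, NDUFAF7, UQCRC1, UQCRC2, ATP5F1A, ATP5F1B, ATP5F1C, ATP5MC2, COX10, ATPAF2, TIMM44, PPARGC1A, TFAM, TFB2M, PPRC1, NRF1 and GABPA were added after their values were seen. Some genes that the rule takes are not reported here. The members and lists were chosen with earlier results of these data known. Alternatives covered normalization, the value added before the log, dim records, moderation, the record per gene, array weights, a replicate block, call rules and leaving out each array.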

Additional observations from a re-analysis of the deposited data

How the results depend on the processing

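Of the alternatives, another scaling (each array centred on its median), array weights and adjustment over all records left all 39 counts and medians within 1.5 times or within the spread between arrays. Among the 100 genes followed singly, ATP5IF1 was the one called gene that changed sign in an alternative, to -0.15 with its second brightest record. Of the 90 genes, the count was 23 higher and 6 lower in the 83 that are not assembly factors. The groups share replicate numbers, and whether same-numbered cultures came from the same experiment was not established. Same-numbered arrays did not deviate together (correlations of -0.08, 0.04 and -0.09). With so few arrays in each group, these correlations cannot decide whether the cultures were pairs. The main fit treats them as unpaired, and a fit with the replicate number as a block is given beside it. With that block 11.1% of the 90 genes were higher and 4.44% lower, against 8.01% and 10.4% of all genes. The causes of the changes below were not tested, except that stricter rules, fewer arrays and fewer records enter by construction.

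With a replicate block, higher counts were 10 in the 90 genes, 8 in complex I, 0 each in complex II, complex III, complex IV and import genes and 1 in the TCA cycle. There, lower counts were 4 each in the 90 genes, other assembly factors and import genes, 3 each in complex I and biogenesis regulators and 0 each in complex V, the TCA cycle and alternative electron entry. With a change of at least 2-fold also required, higher counts were 5 in the 90 genes, 4 in complex I, 0 each in complex II, complex III, complex IV and import genes and 1 each in complex V, other assembly factors and the TCA cycle. There, lower counts were 2 each in the 90 genes and import genes, 1 each in complex I and carriers, 0 each in complex V, the TCA cycle and alternative electron entry and 3 in other assembly factors. At an adjusted p under 0.01, higher counts were 7 in the 90 genes, 6 in complex I, 0 each in complex II, complex III, complex IV and import genes and 1 each in complex V and the TCA cycle. There, lower counts were 4 each in the 90 genes and other assembly factors, 3 each in complex I and import genes, 0 each in complex V, the TCA cycle and alternative electron entry and 2 in biogenesis regulators. The share of all genes under 0.01 was not counted, so the counts at this threshold cannot be set against it. With trend and robust settings, higher counts were 2 each in complex III and import genes, 8 in complex IV, 1 in CYC1 and CYCS and 5 in the TCA cycle. There, lower counts were 1 in complex III, 13 in other assembly factors and 2 in alternative electron entry. With these settings 15.4% of all genes were higher and 18.6% lower. Without records below the median, higher counts were 1 each in complex II and CYC1 with CYCS, 2 each in complex III and import genes and 5 in other assembly factors. There, lower counts were 1 in complex III, 14 in other assembly factors and 2 each in the TCA cycle and alternative electron entry. There, medians of the genes left were 0.22 in the 78 members, 0.23 in complex II, -0.092 in complex III and 0.28 in complex IV. They were -0.16 in other assembly factors, -0.57 in biogenesis regulators and -0.58 in carriers. Without the dimmest 25% of records, higher counts were 2 in import genes. There, lower counts were 2 in alternative electron entry. There, medians of the genes left were 0.47 in complex IV and -0.58 in carriers. Of all genes left in that fit 19.3% were higher and 23.4% lower. With the mean of a gene's records, higher counts were 1 in complex V. There, medians were 0.16 in complex III and -0.48 in biogenesis regulators. With the second brightest record, lower counts were 0 in complex V. There, medians were 0.0054 in complex III. After a repeated quantile normalization, higher counts were 2 in import genes. There, medians were -0.0066 in other assembly factors. With 16 added before the log, lower counts were 2 in alternative electron entry. Without each of the 6 arrays in turn, higher counts were 11 to 19 in the 90 genes, 9 to 12 in complex I, 1 to 2 in complex II, 0 to 1 in complex III, 0 to 3 in complex IV, 1 to 2 in complex V, 1 to 2 in the TCA cycle and 0 in import genes, lower counts 5 to 8 in the 90 genes, 3 to 6 in complex I, 0 to 1 in complex III, 5 to 8 in other assembly factors, 3 to 6 in biogenesis regulators, 0 to 1 in the TCA cycle, 4 to 6 in import genes and 0 to 1 in alternative electron entry, and medians 0.22 to 0.32 in the 90 genes, 0.17 to 0.35 in complex I, 0.25 to 0.41 in complex IV, -0.083 to 0.0065 in other assembly factors, 0.065 to 0.19 in the TCA cycle and -0.44 to -0.28 in carriers. The median of the other assembly factors turned positive (0.0065) without DCC-2036 replicate 1. Intensities come without a detection call, so signal over background cannot be read for the dimmest records.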
